A study of Homo sapiens with 6 samples.

Results

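The loci of 8 genes known as oncogenes, survival genes or identity factors of B cell lymphoma were examined for H3K27me3, the trimethylation of histone H3 at lysine 27. The genes were REL, BCL11A, POU2AF1, BIRC3, BCL2, BCL6, MYC and FOXP1, and some of them lie in segments of high input DNA in 1 of the lines. A locus was the gene with 50 kb on either side, at hg19 positions given to 1 kb, and its members were the islands of enrichment that touched it. The loci held 67 of the 72972 islands of the series, namely 23 of 21320 of Pfeiffer, 28 of 23180 of WSU-DLCL2 and 16 of 28472 of KARPAS-422. The loci were chosen by covered share and by H3K27me3 and input reads per kb in these same libraries, so these measures and the folds are given as a description, without a test.

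The material was chromatin of 3 established lines grown from diffuse large B cell lymphoma, all labelled EZH2 mutant, profiled by immunoprecipitation and sequencing. Wild-type lines named in the series title were not analysed here. Pfeiffer had an average gIC50 of 28 nM, WSU-DLCL2 of 134 nM and KARPAS-422 of 232 nM by the labels, which do not name the compound beside the value. The study addressed differences in sensitivity to GSK126, an inhibitor of EZH2. The labels used here name neither a drug treatment nor the mutation itself. Every line was represented by 1 H3K27me3 library beside 1 input library, which leaves the spread between replicates unknown for every difference below. Autosomal islands held 17024803 H3K27me3 and 8800268 input reads in Pfeiffer, 17188115 and 8224578 in WSU-DLCL2, with 16039824 and 5694645 for KARPAS-422. They covered 24.7% to 25.6% of the autosomes. The fold of an island is the authors' ratio of its H3K27me3 to its input reads after scaling the libraries, and its relative input is its input reads per kb in multiples of the median autosomal island of the line.

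EZH2 is the catalytic subunit of Polycomb repressive complex 2, which writes H3K27me3 over genes that are kept silent. Broad stretches of the mark usually stop short of genes in active use. In germinal centre B cells EZH2 holds back the programme of plasma cell differentiation, and gain-of-function mutations of EZH2 recur in lymphomas of that origin. Of the genes here, BCL6, BCL11A, FOXP1 and POU2AF1 encode regulators of transcription in B cells, REL encodes a subunit of NF-kB, BIRC3 and BCL2 encode inhibitors of cell death, and MYC encodes a driver of growth.

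Median covered share was lower over the genes alone than over the genes with their flanks in each line. The covered share, the percentage of 750-base windows lying in islands, had a median over the 8 loci of 46.3% for Pfeiffer, 39.1% for WSU-DLCL2 and 49.1% for KARPAS-422. Over the genes alone, without flanks, the median was 13.3% for Pfeiffer, 0% for WSU-DLCL2 and 0.847% for KARPAS-422. The gene itself was without any covered window at 3 loci of Pfeiffer, 5 of WSU-DLCL2 and 4 of KARPAS-422. The share of all genes was not computed here, so nothing is read from these counts. The gene was covered from end to end at BCL11A in Pfeiffer, MYC in WSU-DLCL2, and POU2AF1 and BIRC3 in KARPAS-422. A window without an island is one that was not called enriched over input, not one shown to lack the mark.

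**Figure D1:**
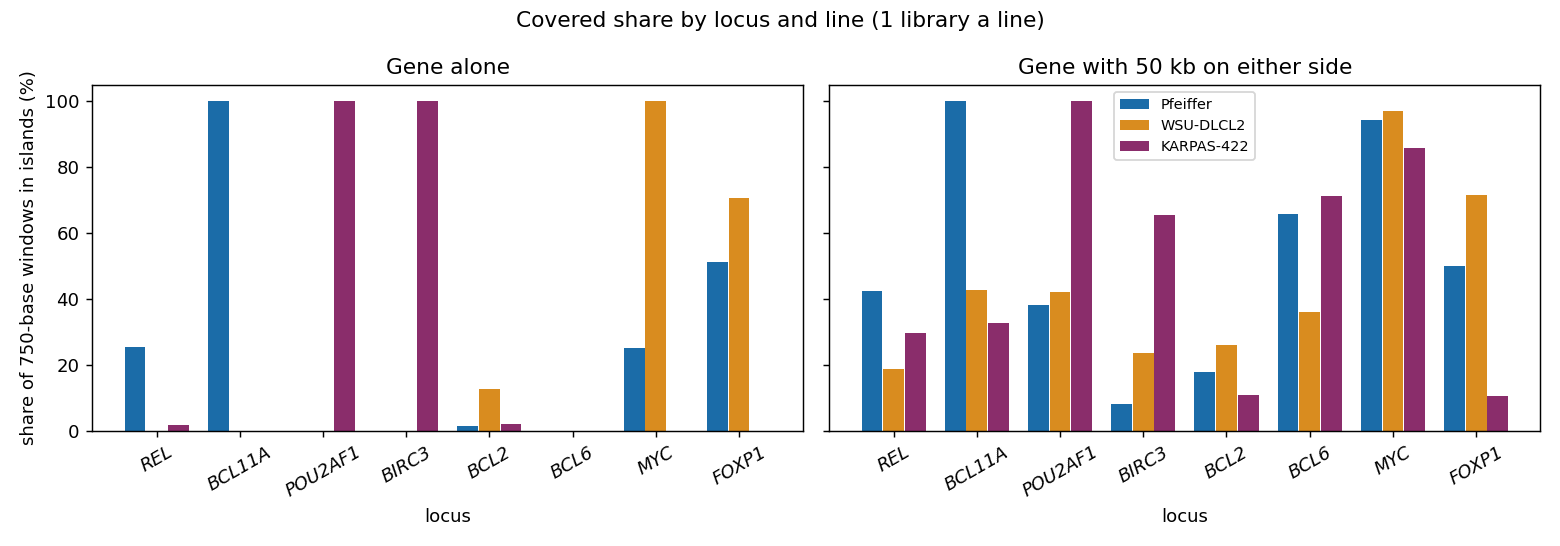
Bars give the share of 750-base windows in islands (%) at each of the 8 loci for Pfeiffer, WSU-DLCL2 and KARPAS-422, for the gene alone (left) and with 50 kb on either side (right), from 1 library a line. Gene bars reach 100% for BCL11A in Pfeiffer, MYC in WSU-DLCL2 and POU2AF1 and BIRC3 in KARPAS-422, while BCL6 has none in any line.

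At least 50% of the locus was covered at 4 of 8 loci of Pfeiffer, 2 of WSU-DLCL2 and 4 of KARPAS-422. Of 19183 autosomal tiles of 150 kb, 24.3% were covered to that extent in Pfeiffer, 23% for WSU-DLCL2 and 22.5% for KARPAS-422. MYC was the locus above 50% in every line. BCL6 was so in Pfeiffer and KARPAS-422, FOXP1 in Pfeiffer, where it sat at the limit with 50.1%, and in WSU-DLCL2. BCL11A was so in Pfeiffer, and POU2AF1 and BIRC3 in KARPAS-422. Covered share differed by at least 25 percentage points at 2 loci between Pfeiffer and WSU-DLCL2, where 14.7% of tiles did. Both, BCL11A and BCL6, were higher in Pfeiffer, as were 8.17% of tiles, against 6.53% that were lower. Between Pfeiffer and KARPAS-422 it did so at 4 loci and 15.3% of tiles. BCL11A and FOXP1 were higher in Pfeiffer, as were 8.09% of tiles, and POU2AF1 and BIRC3 were lower, as were 7.26%. Between WSU-DLCL2 and KARPAS-422 it did so at 4 loci and 15.6% of tiles. FOXP1 was higher in WSU-DLCL2, as were 7.41% of tiles, and POU2AF1, BIRC3 and BCL6 were lower, as were 8.22%. The loci were picked for such differences, so nothing is read from these counts.

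**Figure D2:**
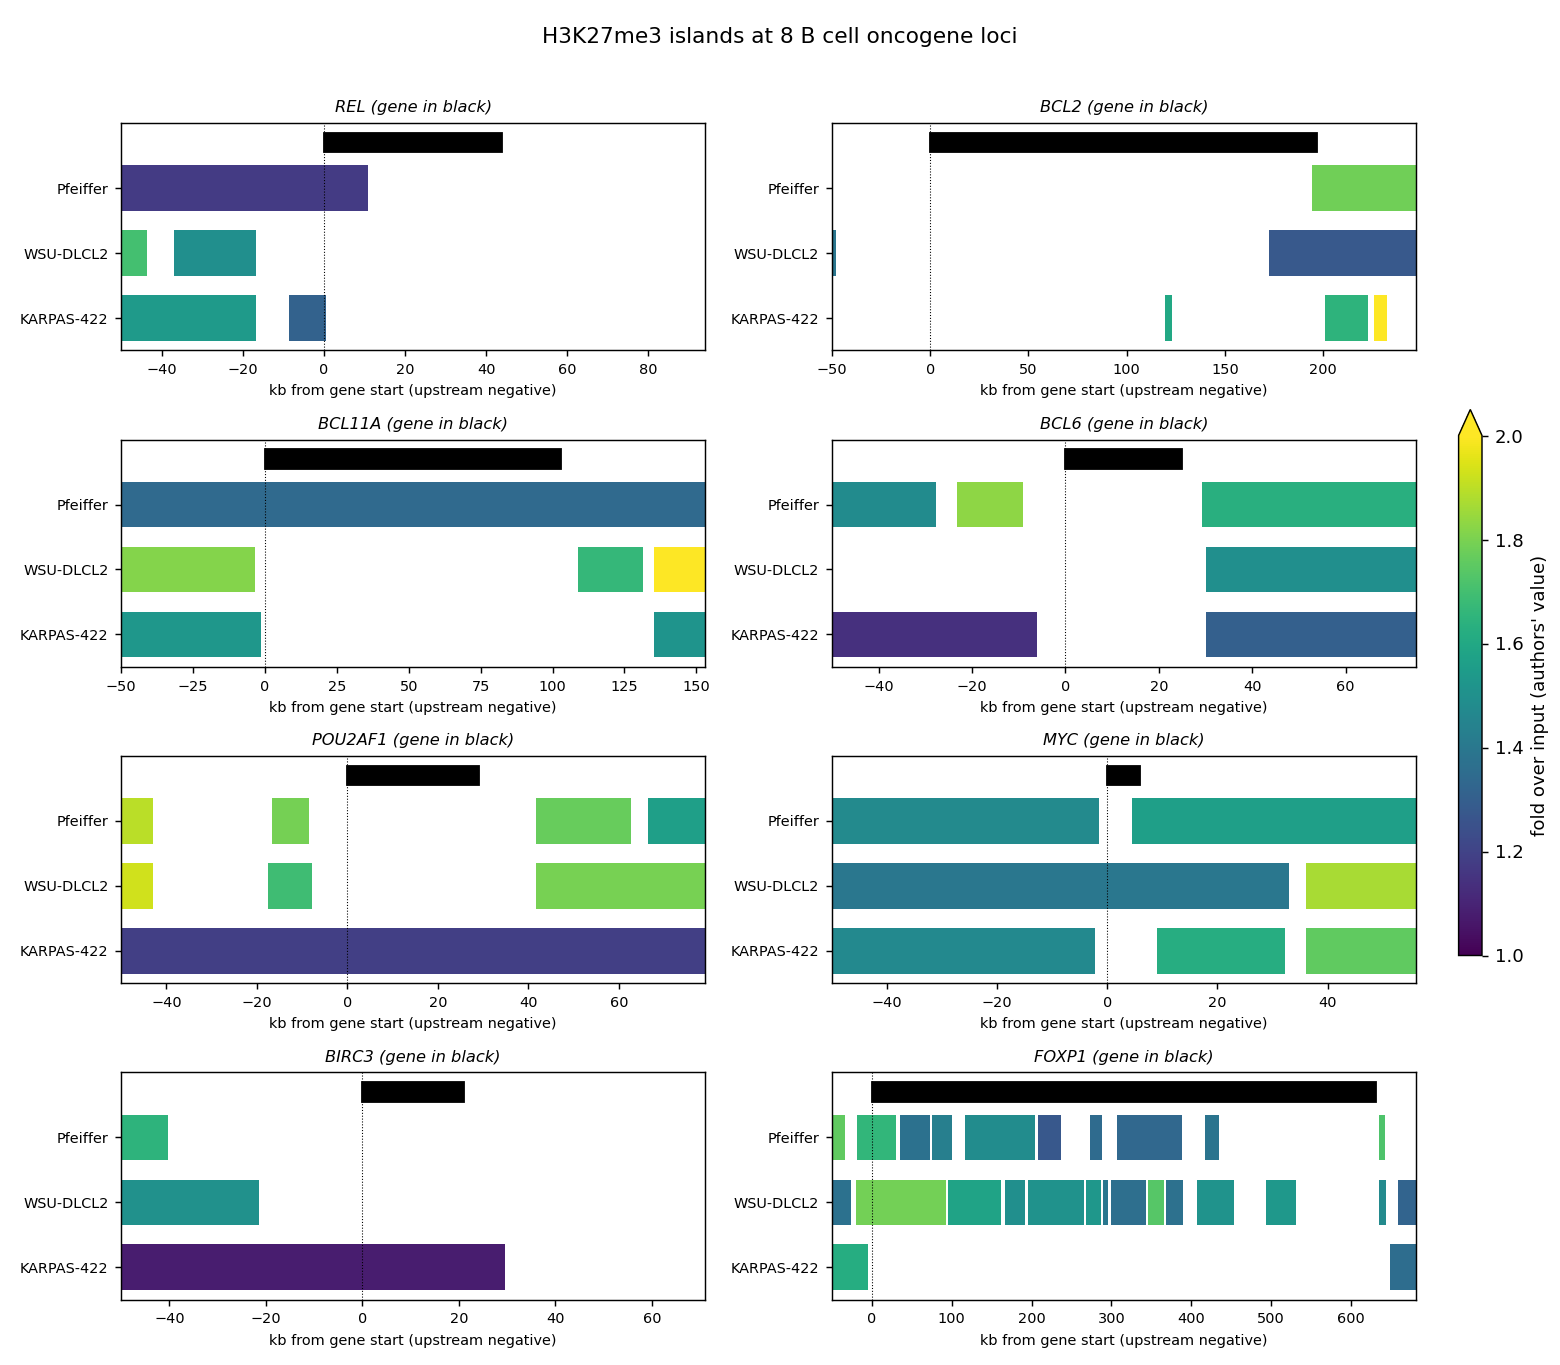
Each panel shows 1 locus by distance from the gene start in kb, upstream negative, with the gene as a black bar and the islands of Pfeiffer, WSU-DLCL2 and KARPAS-422 as boxes coloured by the authors' fold over input (scale ends at 2). The unbroken boxes over BCL11A in Pfeiffer and over POU2AF1 and BIRC3 in KARPAS-422 have folds of 1.34, 1.19 and 1.08, and the FOXP1 gene meets 8 islands of Pfeiffer, 11 of WSU-DLCL2 and 0 of KARPAS-422.

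Gene starts lay in an island at 3 loci of Pfeiffer (REL, BCL11A and FOXP1), 2 of WSU-DLCL2 (MYC and FOXP1) and 3 of KARPAS-422 (REL, POU2AF1 and BIRC3). Of all autosomal positions, 25.6% lay in an island of Pfeiffer, 24.8% of WSU-DLCL2 and 24.7% of KARPAS-422, so these counts of 8 were near that share. Most such positions are not gene starts, and the share of all gene starts was not computed. The start of REL in KARPAS-422 was met only by the last 0.5 kb of a 9 kb island, which is less than the resolution of the gene positions. With islands of a fold of at least 1.5 only, FOXP1 alone was left, in Pfeiffer and in WSU-DLCL2, and KARPAS-422 had 0. That setting was chosen after the data had been seen. Islands came close to several uncovered starts, to 1.25 kb upstream of BCL11A in KARPAS-422, 1.5 kb upstream of MYC in Pfeiffer and 4.5 kb upstream of FOXP1 in KARPAS-422. The starts of BCL2 and BCL6 were outside islands in all 3 lines, and the gap around the start was widest at FOXP1 in KARPAS-422, with 653.25 kb.

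Polycomb complexes are known to gather at stretches rich in unmethylated CpG. The sequence before the start was therefore read for 4 genes whose start met an island in at least 1 line. The starts of POU2AF1 and MYC also met one, but these genes had no promoter entry. The 250 bases upstream of the outermost listed start come from RefSeq on GRCh38.p14 and are written 5′ to 3′ with each CpG in capitals.
REL, chr2:60881324-60881573, plus strand: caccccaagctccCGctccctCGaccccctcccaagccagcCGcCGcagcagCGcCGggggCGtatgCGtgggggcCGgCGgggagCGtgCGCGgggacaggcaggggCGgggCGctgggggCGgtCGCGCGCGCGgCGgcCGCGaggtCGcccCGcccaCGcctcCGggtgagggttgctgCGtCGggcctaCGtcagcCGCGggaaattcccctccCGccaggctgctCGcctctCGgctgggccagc
BCL11A, chr2:60553925-60554174, minus strand: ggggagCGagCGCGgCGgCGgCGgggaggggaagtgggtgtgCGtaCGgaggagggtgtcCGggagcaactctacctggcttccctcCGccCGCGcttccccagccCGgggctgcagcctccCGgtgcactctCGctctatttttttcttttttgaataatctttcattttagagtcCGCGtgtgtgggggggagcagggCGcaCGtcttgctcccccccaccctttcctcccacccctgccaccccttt
BIRC3, chr11:102317234-102317483, plus strand: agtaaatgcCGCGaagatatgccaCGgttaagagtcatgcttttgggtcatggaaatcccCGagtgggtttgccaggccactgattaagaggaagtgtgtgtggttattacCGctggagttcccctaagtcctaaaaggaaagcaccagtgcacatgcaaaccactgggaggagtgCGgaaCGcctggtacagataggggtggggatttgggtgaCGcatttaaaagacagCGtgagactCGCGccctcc
FOXP1, chr3:71583729-71583978, minus strand: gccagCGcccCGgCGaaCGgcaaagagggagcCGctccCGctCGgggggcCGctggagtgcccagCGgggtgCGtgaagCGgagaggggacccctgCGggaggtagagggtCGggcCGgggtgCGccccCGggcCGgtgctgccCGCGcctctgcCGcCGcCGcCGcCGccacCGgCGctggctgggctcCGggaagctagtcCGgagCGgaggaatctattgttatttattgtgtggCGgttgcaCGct

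CpG number varied widely among these sequences. REL had 36 CpG, and 95.1% of the 35116 promoter entries of the table had fewer, with a median of 11. FOXP1 had 31, BCL11A 19 and BIRC3 11. BCL2 and BCL6, whose starts met no island, had 24 and 12. The binding consensus of NF-kB, searched by name on both strands, matched 2 overlapping stretches before REL, GGGAAATTCC and GGAAATTCCC. Before BIRC3, known as a target of NF-kB, it matched GGAAATCCCC and GGAGTTCCCC. Before BCL11A, BCL2, BCL6 and FOXP1 it had no match. Of all promoter entries, 9.96% held a match in the same length. The letters describe the DNA and carry no evidence of binding in these cells.

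REL and BCL11A neighbour each other on chromosome 2, with PAPOLG between them. At BCL11A, which encodes a zinc finger repressor needed for B cell development, Pfeiffer had a single island of 561 kb from 60422251 to 60983250 on hg19. It covered 100% of the locus. WSU-DLCL2 had 42.8% covered and KARPAS-422 32.8%, all of it in the flanks, with no covered window in the gene. Upstream of the gene WSU-DLCL2 had an island of 160.5 kb that stopped 3.5 kb before the start, and KARPAS-422 one of 141 kb that stopped 1.25 kb before it. Downstream, the gene ends 103 kb from its start, and the first island began at 109 kb in WSU-DLCL2 and at 135.25 kb in KARPAS-422. WSU-DLCL2 also had an island edge at 135.25 kb.

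The unbroken island over BCL11A in Pfeiffer had many H3K27me3 reads and a high input. It held 26214 H3K27me3 reads, or 46.7 per kb, and 16832 input reads. The H3K27me3 reads per kb were 2.38 times the median of the autosomal islands of Pfeiffer, and the input reads per kb 2.79 times. The authors' fold was 1.34 (95% interval 1.32 to 1.37), and 13.9% of the islands of that list had a fold no higher. The island upstream of BCL11A had a fold of 1.81 (1.72 to 1.92) in WSU-DLCL2 at a relative input of 1.06. In KARPAS-422 it had 1.53 (1.44 to 1.62) at 1.59. The intervals are for the ratio of 2 counts and cover counting error only, since amplified reads are not independent molecules.

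At REL, the gene of the NF-kB subunit c-Rel, Pfeiffer again had 1 island, of 90 kb, from 61029001 to 61119000. It ran from -79 to 11 kb of the start and covered 42.5% of the locus and 25.4% of the gene. Its 4980 H3K27me3 reads and 3648 input reads gave a fold of 1.18 (1.13 to 1.23), and its input was 3.76 times the median, the sixth highest in the list. WSU-DLCL2 had 18.7% of the locus covered by 2 upstream islands, with folds of 1.70 and 1.495 and relative inputs of 1.38 and 1.301. KARPAS-422 had 29.5% covered, with folds of 1.54 and 1.31 and relative inputs of 1.62 and 1.42. The main upstream islands of WSU-DLCL2 and KARPAS-422 ended at the same position, 16.75 kb before the start. Downstream of the gene no line had an island within 50 kb.

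Both loci belonged in Pfeiffer to 1 run of islands with input of at least 2 times the median, from 60084001 to 61869750 on chromosome 2. The run had 7 islands with inputs of 2.20 to 4.18 times the median and folds of 1.154 to 1.45. The next island on the low side had an input of 0.669 and that on the high side 1.83. Past the latter, every island of Pfeiffer within 3 Mb of the middle of REL again had an input of at least 2. The high limit of the run is therefore not shown to be the end of the raised input. Within 2 Mb of BCL11A, pooled input was 2.84 times the median for Pfeiffer, 1.06 for WSU-DLCL2 and 1.48 for KARPAS-422. The part of raised input in the length and fold of these islands was not tested. With islands of a fold of at least 1.5 only, Pfeiffer had no covered window at either locus, while the covered share of BCL11A stayed at 42.8% in WSU-DLCL2 and 32.8% in KARPAS-422. That of REL was then 4.66% in WSU-DLCL2 and 23.3% in KARPAS-422.

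POU2AF1, the gene of the B cell coactivator OCA-B, and BIRC3, which encodes the ubiquitin ligase cIAP2 of the NF-kB pathway, lie on the same chromosome arm. Both were met by long islands of high input in KARPAS-422. An island of 904.5 kb covered 100% of the POU2AF1 locus in KARPAS-422, from 110574001 to 111478500 on chromosome 11. Pfeiffer had 38.2% covered and WSU-DLCL2 42.2%, in both cases with no covered window in the gene. The island of KARPAS-422 held 80.6 H3K27me3 reads per kb, 4.02 times the median of the line, and 41.3 input reads per kb. Its input was 5.51 times the median, the highest of all 27589 autosomal islands of KARPAS-422, and it was the second longest. Its fold was 1.19 (1.172 to 1.202), and 0.812% of the list had a fold no higher.

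Of the 6 island edges of Pfeiffer inside the POU2AF1 locus, 4 lay within 750 bases of one in WSU-DLCL2. An island of 8.25 kb in Pfeiffer and one of 9.75 kb in WSU-DLCL2 lay upstream, ending 8.5 and 7.75 kb before the start. Farther upstream a longer island of each line ended 43 kb before the start. Downstream the first island of each began 41.75 kb from the start, beyond the end of the gene of 29 kb. Folds were 1.56 to 1.90 in Pfeiffer and 1.69 to 1.93 in WSU-DLCL2, at relative inputs of 1.05 to 1.28 in Pfeiffer and 1.146 to 1.45 in WSU-DLCL2. Between these islands the gene lay in a gap of 50.25 kb in Pfeiffer and 49.5 kb in WSU-DLCL2.

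The BIRC3 island of KARPAS-422 had the lowest fold of the 67. In KARPAS-422 an island of 424.5 kb, from 101793001 to 102217500, covered the upstream flank and the whole gene and ended 29.5 kb past the start, so that 65.4% of the locus was covered. It had 12262 H3K27me3 reads and 6898 input reads, a fold of 1.08 (1.05 to 1.11) and a relative input of 2.17. In the list, 0.0181% of islands had a fold no higher. After scaling, H3K27me3 exceeded input by 2.15 reads per kb, against a median of 7.60 over the islands of the line. In Pfeiffer the single island at BIRC3 ended 40.25 kb upstream and covered 8.02% of the locus with a fold of 1.65 at a relative input of 0.927. In WSU-DLCL2 it ended 21.5 kb upstream and covered 23.5% with a fold of 1.503 at 0.958.

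**Figure D3:**
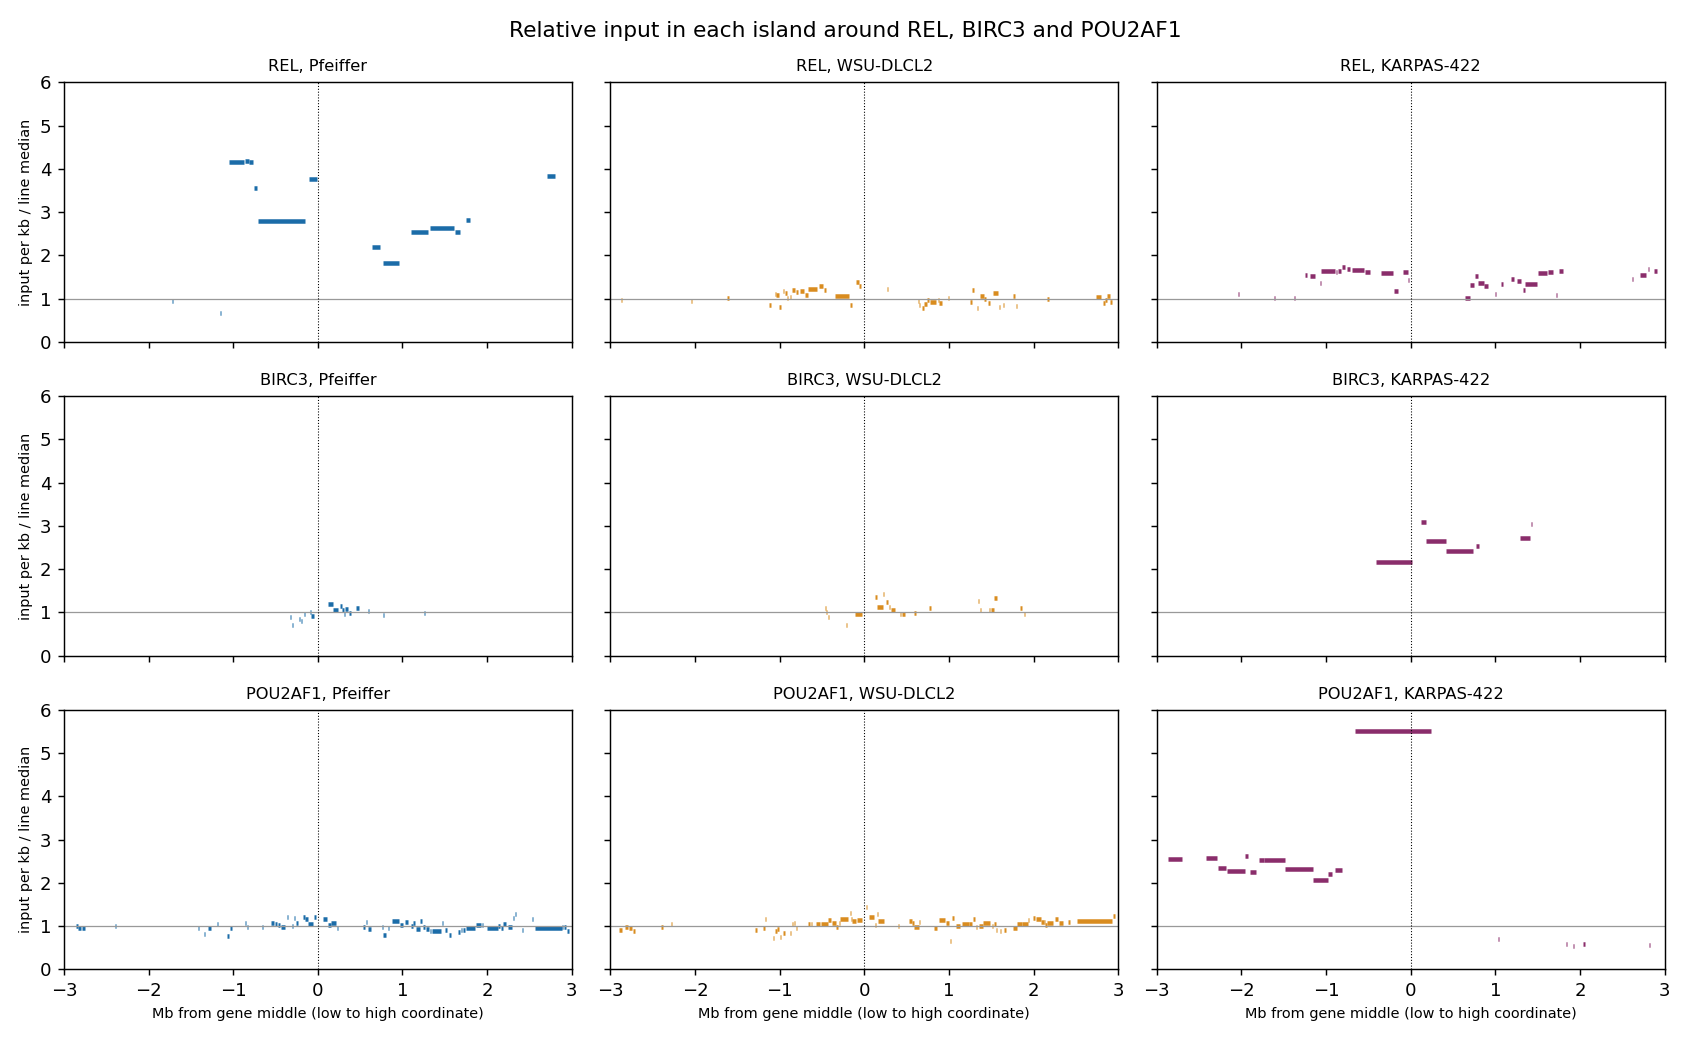
Horizontal bars are islands within 3 Mb of the middle of REL, BIRC3 and POU2AF1 (rows) in Pfeiffer, WSU-DLCL2 and KARPAS-422 (columns), drawn at their input reads per kb divided by the median of the line. Islands around REL reach 4.18 in Pfeiffer, and the island over POU2AF1 stands at 5.51 in KARPAS-422, whereas every island of WSU-DLCL2 drawn is below 2.

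The island over POU2AF1 stood apart from its neighbours in KARPAS-422. It closed a run of 14 islands with input of at least 2 times the median, from 107841001 to 111478500, in which the other 13 had inputs of 2.07 to 2.63. The next island lay 646.5 kb farther on and had an input of 0.635. BIRC3 opened another run, of 12 islands up to 107661750, with inputs of 2.17 to 3.09 and folds of 1.06 to 1.29. Only 1 island parted the BIRC3 run from the POU2AF1 run, with an input of 1.992, just under the limit of 2. It lay 68.25 kb past the BIRC3 run and 43.5 kb before the POU2AF1 run, so they are not shown to be separate segments. The excess of H3K27me3 over scaled input was 12.7 reads per kb at POU2AF1 and 2.15 at BIRC3 in KARPAS-422, and 11.9 at BCL11A and 8.26 at REL in Pfeiffer. Reads per kb of the loci inside the 3 longest islands are averages over those whole islands, of which 14.3% (POU2AF1), 18.7% (BIRC3) and 36.2% (BCL11A) lay in the locus. Any uneven distribution inside them cannot be seen in the lists.

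The same lists gave a wider comparison of fold and input. Input reads are the divisor of the fold, so the 2 measures are not independent and a lower fold at high input is partly built in. Islands with an input of at least 2 times the median numbered 67 in Pfeiffer, with a median fold of 1.49 (quartiles 1.34 and 1.67), against 1.57 for islands of balanced input, 0.85 to 1.15. In KARPAS-422 there were 92, with a median of 1.24 (1.148 and 1.33) against 1.59. WSU-DLCL2 went the other way at this limit, with 65 islands and a median of 1.64 against 1.52. With limits of 1.3 and 3 instead, its medians were 1.43 and 1.48, below that of balanced input. REL in Pfeiffer and BIRC3 in KARPAS-422 were below the lower quartile of the high-input islands of their line, and BCL11A in Pfeiffer and POU2AF1 in KARPAS-422 lay between the quartiles. High-input islands had a median length of 46.5 kb against 21 kb at balanced input in Pfeiffer and of 55.1 kb against 15.75 kb in KARPAS-422, but of 14.25 kb against 20.25 kb in WSU-DLCL2. The high-input islands include those named here.

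**Figure D4:**
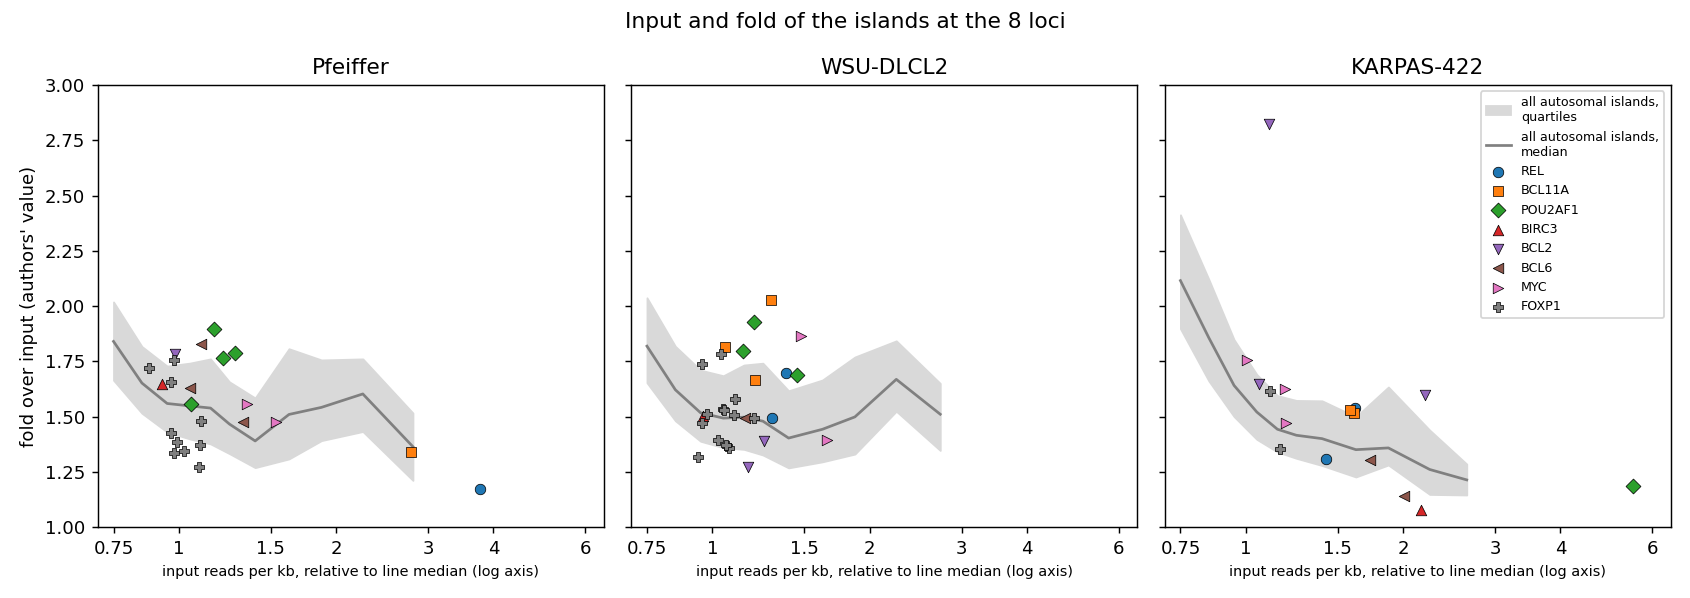
Each symbol is an island at 1 of the 8 loci, by its relative input, in multiples of the median of the line (log axis), and the authors' fold over input, in Pfeiffer, WSU-DLCL2 and KARPAS-422. The grey line and band are the median and quartiles of all autosomal islands in bins of relative input. The islands over REL (1.18 at an input of 3.76), POU2AF1 (1.19 at 5.51) and BIRC3 (1.08 at 2.17) have folds under 1.2, as has the one upstream of BCL6 in KARPAS-422 (1.14 at 2.01).

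Pooled fold over the islands of a locus was at least 1.5 at 5 of 8 loci of Pfeiffer, 5 of WSU-DLCL2 and 4 of KARPAS-422. Of the tiles with at least 5 kb of islands, 65.5% reached that value for Pfeiffer, 60.6% for WSU-DLCL2 and 65.9% for KARPAS-422. Relative input was at least 1.3 at 3 loci of Pfeiffer (REL, BCL11A and MYC), 2 of WSU-DLCL2 (REL and MYC) and 5 of KARPAS-422 (REL, BCL11A, POU2AF1, BIRC3 and BCL6). Among tiles, 13.7% did so for Pfeiffer, 7.37% for WSU-DLCL2 and 8.26% for KARPAS-422. REL and BCL11A lay in the same run of raised input in Pfeiffer, so they are not separate cases there. The loci were picked by H3K27me3 and input reads per kb, so nothing is read from these counts of fold and input. Input could be read only inside islands, so it is unknown over stretches without one.

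BCL2, the inhibitor of apoptosis that is translocated in many germinal centre lymphomas, was largely free of islands over its 197 kb in all 3 lines. The covered share of the gene was 1.52% for Pfeiffer, 12.5% for WSU-DLCL2 and 1.90% for KARPAS-422. Most coverage lay at and beyond the end of the gene, where Pfeiffer had an island of 87.75 kb with a fold of 1.78 (1.65 to 1.93). WSU-DLCL2 had there an island of 100.5 kb that began 172.5 kb from the start, inside the gene, with a fold of 1.27 (1.19 to 1.37). Upstream, WSU-DLCL2 had an island of 12.75 kb that ended 48 kb before the start, with a fold of 1.39. KARPAS-422 had 2 short islands beyond the gene, of 21.75 and 6.75 kb, the shorter with a fold of 2.82 (2.11 to 3.84), and 97.3% of its list had a fold no higher. Inside the gene KARPAS-422 had 1 island of 3.75 kb with 163 H3K27me3 reads and 62 input reads, a fold of 1.60 and a relative input of 2.21. The relative input of the locus was 0.983 for Pfeiffer, 1.17 for WSU-DLCL2 and 1.204 for KARPAS-422.

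BCL6, the repressor that defines the germinal centre programme, was covered in no line and had an island downstream in each. The downstream island began 29.25 kb from the gene start in Pfeiffer and 30 kb from it in WSU-DLCL2 and KARPAS-422, just beyond the gene of 25 kb, so the 3 lines shared this boundary to within 1 window of 750 bases. That island had a length of 134.25 kb and a fold of 1.63 (1.53 to 1.74) in Pfeiffer. It had 133.5 kb and 1.496 (1.41 to 1.59) in WSU-DLCL2, and 239.25 kb and 1.303 (1.25 to 1.36) in KARPAS-422. The lines differed upstream. Pfeiffer had 73.1% of the upstream flank covered, by islands of 14.25 and 41.25 kb with folds of 1.83 and 1.48. WSU-DLCL2 had none, and its nearest upstream island was 237 kb away, with a fold of 1.38 and a relative input of 2.58. KARPAS-422 had 88.1% covered, by an island of 107.25 kb with a fold of 1.14 (1.07 to 1.21) and a relative input of 2.01, and 0.225% of its list had a fold no higher. Within 2 Mb of BCL6 pooled input was 1.04 times the median for Pfeiffer, 1.45 for WSU-DLCL2 and 1.59 for KARPAS-422.

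The MYC locus was covered to 94.4% in Pfeiffer, to 97.2% for WSU-DLCL2 and to 85.9% for KARPAS-422. The gene itself, which at 6 kb spans few windows, was covered to 25% for Pfeiffer, 100% for WSU-DLCL2 and 0% for KARPAS-422. In Pfeiffer the upstream island stopped 1.5 kb before the start and the next began 4.5 kb after it. In KARPAS-422 these distances were 2.25 and 9 kb. In WSU-DLCL2 an island of 246.75 kb ran through the gene to 33 kb past the start, with 7785 H3K27me3 reads, 4395 input reads and a fold of 1.40 (1.34 to 1.45). Its relative input was 1.66, against 1.53 for the upstream island of Pfeiffer and 1.19 for that of KARPAS-422, whose folds were 1.48 and 1.47. Within 2 Mb pooled input was 1.502 times the median for Pfeiffer, 1.48 for WSU-DLCL2 and 1.12 for KARPAS-422. The first island past the locus had an input of 0.724 in WSU-DLCL2, 420.75 kb beyond the middle of the gene. In Pfeiffer it had 1.89, at 381 kb, and in KARPAS-422 1.32, at 471.75 kb. The pooled value of WSU-DLCL2 therefore does not describe both sides of the gene. The upstream island began at -213.75 kb in both Pfeiffer and WSU-DLCL2, and the last island of the locus ended 58.5 kb past the start in all 3 lines.

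FOXP1, a forkhead factor with a long gene of 631 kb, differed between the lines in covered share. Pooled input was near the median where islands allowed it to be read, which excludes the gene itself in KARPAS-422. Its gene was covered to 51.2% for Pfeiffer, 70.5% for WSU-DLCL2 and 0% for KARPAS-422. In Pfeiffer 8 islands and in WSU-DLCL2 11 islands touched the gene, holding 323.25 and 445.5 kb of it. The longest stretch of the gene without an island was its far end in both, 197.25 kb in Pfeiffer and 100.5 kb in WSU-DLCL2. KARPAS-422 had an island of 75 kb upstream, which stopped 4.5 kb before the start, and one of 36.75 kb from 648.75 kb onward, beyond the end of the gene.

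Folds at FOXP1 were moderate in each line. Pooled over the locus they were 1.45 (1.39 to 1.504) at a relative input of 1.03 for Pfeiffer, 1.55 (1.51 to 1.60) at 1.06 for WSU-DLCL2 and 1.51 (1.38 to 1.65) at 1.13 for KARPAS-422. Single islands had folds of 1.27 to 1.76 in Pfeiffer and 1.32 to 1.79 in WSU-DLCL2. The island over the start had a fold of 1.66 in Pfeiffer, and ran from -18 to 30 kb. In WSU-DLCL2 the island there ran from -20.25 to 92.25 kb with a fold of 1.79 (1.67 to 1.91). Input inside the gene could not be read in KARPAS-422, which had no island there. Within 2 Mb pooled input was 1.01 times the median for Pfeiffer, 1.06 for WSU-DLCL2 and 1.11 for KARPAS-422. With islands of a fold of at least 1.5 only, the covered share of the locus was 9.95% for Pfeiffer, 50.7% for WSU-DLCL2 and 6.26% for KARPAS-422, so at that fold Pfeiffer and KARPAS-422 were close and WSU-DLCL2 stood above both.

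Edges of islands were compared as a measure that does not rest on fold. Of the 34 island edges of Pfeiffer inside the loci, 6 (17.6%) had an edge of the same side within 750 bases in WSU-DLCL2, where 22.8% of all autosomal edges did. In KARPAS-422 2 of them (5.88%) had one, against 23.4% of all. Of the 43 edges of WSU-DLCL2, 5 (11.6%) had one in KARPAS-422, against 24.0% of all. FOXP1 alone gave 19 of the 34 edges and 26 of the 43. With no island of KARPAS-422 in that gene, few of these could meet one in that line. The shares with KARPAS-422 therefore cannot be read apart from the covered share there. Between Pfeiffer and WSU-DLCL2, which both had islands in the gene, 1 of the 19 edges at FOXP1 was shared. At the other loci 5 of 15 edges of Pfeiffer were shared with WSU-DLCL2 and 2 of 15 with KARPAS-422, and 5 of 17 edges of WSU-DLCL2 with KARPAS-422. The shared edges included 4 around POU2AF1 in Pfeiffer and WSU-DLCL2 and, in every pair, the one downstream of BCL6. Islands just inside the limit of 50 kb lay 43 kb from POU2AF1 in Pfeiffer and in WSU-DLCL2, with folds of 1.90 and 1.93. In WSU-DLCL2 others lay 43.75 kb from REL and 48 kb from BCL2, with folds of 1.70 and 1.39. Just outside it were islands 50.5 kb from BCL2 and 63.5 kb from FOXP1 in KARPAS-422 and 70.25 kb from BIRC3 in Pfeiffer, with folds of 1.55, 1.69 and 1.60.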

How the data were processed

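Chromatin fixed in formaldehyde was precipitated using anti-H3K27me3, per the labels' protocols. The submitters' processing notes name Bowtie, SICER and hg19. Names of the deposited lists hold the settings, which are 750-base windows, 2250-base gaps and an FDR of 0.001. The columns have no header and were read as the summary layout of SICER, in which the fold of every island returned from its counts with 1 scaling a list. So read, they give for each island the authors' whole read counts of H3K27me3 and input, a p-value with its q-value, and a fold, which is the ratio of both counts after library scaling. How duplicate reads were handled is not given in the sources used here.

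Covered share was counted on the grid of 750 bases. Reads of an island were shared out by its bases in the locus. Relative input is input reads per kb over the median autosomal island of the line (10.8, 10.7 and 7.50 reads per kb in Pfeiffer, WSU-DLCL2 and KARPAS-422), read where a locus had at least 5 kb of islands. The library ratio returned by the fold was 1.16, 1.27 and 1.65 in these lines. Intervals are exact (Clopper-Pearson) at 95%, checked on simulated counts. Lists name islands only, so full depth is unknown. All 8 loci of the rule are named, and the members, limits and settings were chosen with earlier results of these data known. Gene positions are those of the rule, to 1 kb. No hg19 annotation was used here, so other genes of the same pathways were not counted. RefSeq promoter entries matched 6 of the 8 genes by symbol, and sequences are on GRCh38.p14. Versions were scipy 1.17.1, pandas 2.3.3, numpy 2.4.6 and Python 3.11.15.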

Additional observations from a re-analysis of the deposited data

How the results depend on the processing

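Values are in the order Pfeiffer, WSU-DLCL2, KARPAS-422, or the pairs Pfeiffer with WSU-DLCL2, Pfeiffer with KARPAS-422, WSU-DLCL2 with KARPAS-422. The loci covered to at least 50% numbered 4, 2 and 4. For the gene alone they were 2 in Pfeiffer and 2 in KARPAS-422, with 100 kb on either side 4 in WSU-DLCL2, with a fold of at least 1.5 they were 0, 1 and 0, and with a fold of at least 2 they were 0 in each line. Loci differing by at least 25 points numbered 2, 4 and 4. With 100 kb they were 1 for the first pair, with a fold of at least 1.5 they were 4 for the first pair and 2 for the last, and with a fold of at least 2 they were 0 for every pair. Loci with a pooled fold of at least 1.5 numbered 5, 5 and 4. For the gene alone they were 0, 1 and 0, because genes with less than 5 kb of islands give no value, and with a fold of at least 2 they were 0, 1 and 1. Loci with a relative input of at least 1.3 numbered 3, 2 and 5. For the gene alone they were 1 for WSU-DLCL2 and 2 for KARPAS-422, with whole islands by centre 1 in KARPAS-422, and against the pooled input of the line 1 in WSU-DLCL2. By centre, BCL11A, POU2AF1, BIRC3 and BCL6 gave no value in KARPAS-422, as less than 5 kb of islands was centred in the locus. Genes with less than 5 kb of islands likewise gave no input value for the gene alone. Gene starts in islands numbered 3, 2 and 3. With a fold of at least 1.5 they were 1, 1 and 0, and with a fold of at least 2 they were 0 in each line. The settings for starts were chosen after seeing the data. The other recomputed counts of loci stayed within 1.5 times, but the loci behind a count could change. At a fold of at least 1.5, BCL11A had 0% covered in Pfeiffer and 32.8% in KARPAS-422. POU2AF1 had 38.2% and 0%, so both reversed their direction. BCL6 came in with 47.9% and 0%, and FOXP1 and BIRC3 fell under 25 points. The long islands over REL, BCL11A, POU2AF1 and BIRC3 were lost at a fold of 1.5 by construction, since their folds were under it. For changes with the window, the cause was not tested. When only tiles with an island in at least 1 line were used, the background was 37.3%, 35.3% and 34.5% for covered share and 22.5%, 23.5% and 23.9% for its difference, of which 10% to 12.6% in either direction. No paired analysis was possible because each line had 1 library of each kind.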
